A study of Mus musculus with 4 samples.

Results

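Cdkn1a, Cdkn1b, Cdkn2a, Cdkn2b, Cdkn2c, Cdkn2d, Trp53, Mdm2 and Rb1 encode the brakes of the mammalian cell cycle and their switch, and they are described here across 4 mouse arrays. They were chosen by gene symbol: every probe set that the platform annotation gives to 1 of these symbols alone was taken. This found 9 probe sets for 8 of the 9 genes, out of 41345 probe sets and 22180 genes with a probe set of their own. No probe set is listed for Trp53, alone or together with another gene, so p53 itself is unmeasured here and is seen only through genes that act on it or respond to it. All 8 genes stood at or above the measuring floor on all 4 arrays, so none of them entered the tests through 1 group alone. The floor is the median log2 value of all single-symbol probe sets on an array, 6.64 to 6.67.

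The 4 RNA samples were each read once. One comes from fibroblasts carrying inducible reprogramming factors (repMEFs, from mouse embryos) with a knockdown of Firefly, an insect luciferase that mouse cells lack, and it serves as the control. A second comes from repMEFs with a knockdown of Sumo2, a small protein modifier, and both are bulk cultures at day 6 of doxycycline. The other two, labelled 38hr and 10-day, are stable iPSC (induced pluripotent stem cell) clones made from fibroblasts with Sumo2 knockdown; what their times count from is not stated, and iPSC made without the knockdown are not among the arrays. The labels give ascorbic acid with doxycycline as treatment for all 4, the strain as Black6-129X1/SvJ and the sex as a pool of both. Neither the driver of the reprogramming factors nor the number of cultures or clones behind a sample is stated. Sumo2 itself read 10.65 on the log2 scale in the Firefly culture, 10.56 in the Sumo2 knockdown culture, 11.40 in the 38 h and 11.07 in the 10 day iPSC. The transcript was thus at 93.8% of the control, and the second culture is called the culture labelled Sumo2 knockdown in what follows; its directions hold only as far as that label does.

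The INK4 proteins, encoded by Cdkn2a to Cdkn2d, bind CDK4 and CDK6 and keep them from pairing with D-type cyclins, while the CIP/KIP proteins p21 (Cdkn1a) and p27 (Cdkn1b) act on complexes of CDK2 as well. When these kinases are held back, the retinoblastoma protein stays unphosphorylated, holds E2F transcription factors and stops entry into S phase. Cdkn2a also encodes ARF from another reading frame; ARF blocks MDM2, the ubiquitin ligase that destroys p53, and p53 in turn switches on Cdkn1a and Mdm2. In fibroblasts the Ink4a/Arf locus and p53 are known barriers to reprogramming, and pluripotent mouse cells are known for a short G1 phase.

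Marker genes were set against the labels first. Of 9 measured pluripotency markers all 9 were higher in the iPSC by limma, and 9, 9, 3 and 6 of the 10 lay at or above the floor in the 38 h, 10 day, Firefly and labelled Sumo2 knockdown arrays. Sox2, Zfp42 and Dppa4 lay below the floor on both day 6 arrays. They were measured through the iPSC arrays alone, so their calls are no support for the count. Fibroblast markers were less clear: of 9 measured, 3 fell (Thy1, Prrx1 and Col1a2), 2 rose (Postn and Fbln2) and 8 or 9 of 10 stood at or above the floor on every array, the iPSC included. Of 6 macrophage markers 1 or 2 reached the floor on an array, of 5 endothelial markers 1 or 2, and of 4 neural markers 1 or 2. Among these, Cd68, Lyz2, Pecam1 and Tubb3 rose and Tek fell. Pecam1 and Tubb3, like the fibroblast marker Postn, lay below the floor on both day 6 arrays. They were measured through the iPSC arrays alone, so their rises start from unmeasured levels. Of 6 epithelial markers 5 reached the floor on every array, and Cdh1, Epcam and Cldn4 rose.

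The first question was how the members differed between the iPSC and the day 6 cultures. Cdkn2a, Cdkn2b, Cdkn2c, Cdkn1a and Rb1 were lower in both iPSC lines, by 1.72-fold to 2.86-fold, while Cdkn1b and Cdkn2d hardly differed and Mdm2 was 1.44-fold higher. In limma 5 of 8 members passed an adjusted p under 0.05 as lower and 1 as higher. Among all 12735 measured genes 17.8% were called lower and 29.0% higher, 46.8% either way. The members' median log2 difference was -0.99, against 0.15 over all measured genes. Of the 5, 4 were at least 2-fold lower, where 9.12% of all measured genes were called and at least 2-fold lower. The test sets the mean of 2 iPSC arrays against the mean of 2 day 6 arrays, so its error holds the knockdown and the line as well as noise. With 2 arrays against 2, an exact two-sided permutation test of 1 gene cannot go below p = 0.333, and the limma p-values lean on the spread of all genes. Of 10 fibroblast markers, 9 in the 38 h line and 8 in the 10 day line reached the floor. The part of cell mixture in the members' differences was not tested.

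**Figure D1:**
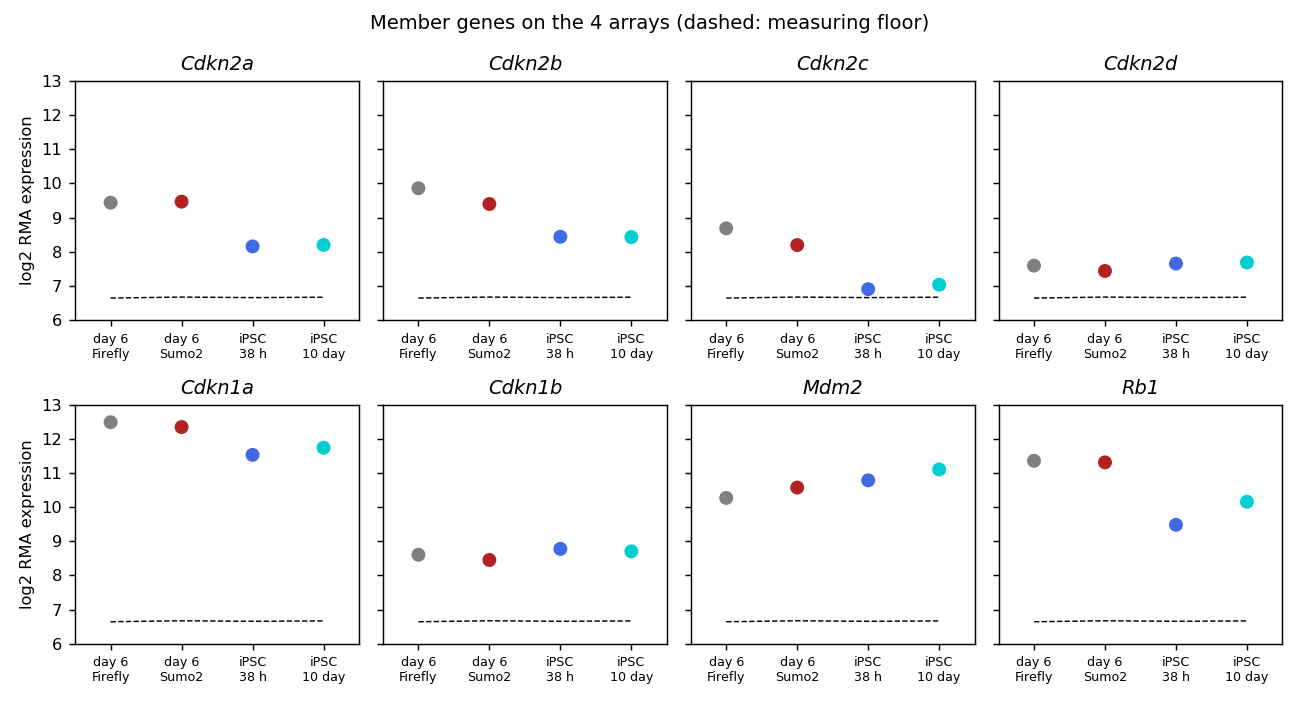
Log2 RMA expression of the 8 measured members on the 4 arrays, 1 point per array, with the measuring floor of each array as a dashed line; levels of different genes are not comparable. Cdkn2a, Cdkn2b, Cdkn2c, Cdkn1a and Rb1 lie lower on both iPSC arrays than on both day 6 arrays, and Cdkn2c comes closest to the floor, at 6.90 in the 38 h line.

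Among the INK4 genes, Cdkn2a encodes p16 and ARF. Its log2 levels were 9.44 in the Firefly culture, 9.47 in the culture labelled Sumo2 knockdown, 8.16 in the 38 h line and 8.20 in the 10 day line. Both day 6 cultures were alike and both iPSC lines were alike, with a gap of 1.24 between the pairs. It fell 2.42-fold in the iPSC, to 41.3% of the day 6 mean (log2 difference -1.28, SE 0.16, 95% CI -1.65 to -0.90, limma adjusted p = 0.00161), the smallest adjusted p of the 8. Since p16 and ARF share exons and the gene has 1 probe set, which transcript was read is not known.

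Cdkn2b lies next to Cdkn2a on chromosome 4 and encodes p15, the INK4 protein induced by TGF-beta in many cell types. It read 9.86 in the Firefly culture, 9.40 in the culture labelled Sumo2 knockdown, 8.44 in the 38 h and 8.43 in the 10 day line. The Firefly culture was highest, the other day 6 culture came between it and the lines, and the lines were nearly equal. Cdkn2b fell 2.29-fold (log2 difference -1.19, SE 0.20, 95% CI -1.68 to -0.71, limma adjusted p = 0.00473).

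Cdkn2c encodes p18, an INK4 protein that in mice limits the growth of many tissues, and it lies on chromosome 4 too. Its levels stood at 8.69 in the Firefly culture, 8.20 in the culture labelled Sumo2 knockdown, 6.90 in the 38 h and 7.03 in the 10 day line. The order of the arrays resembled that of Cdkn2b, with a step between the day 6 cultures and a larger one down to the lines. Cdkn2c fell 2.77-fold, to 36.0% of the day 6 mean (log2 difference -1.47, SE 0.21, 95% CI -1.98 to -0.96, limma adjusted p = 0.00271).

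Cdkn2d, which encodes p19 of the INK4 family and is not ARF, stands on chromosome 9. It read 7.59, 7.44, 7.65 and 7.69 in the Firefly, labelled Sumo2 knockdown, 38 h and 10 day samples. All 4 values lay within 0.25 of each other, and the lines stood above the day 6 cultures by a gap of 0.06. The log2 difference of 0.15 (95% CI -0.24 to 0.55) did not pass (limma adjusted p = 0.458), and an interval this wide holds changes up to 1.46-fold. After each array was centred on its median over measured genes its sign turned (-0.042).

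The start regions of the INK4 genes that fell are shown because they fell together and lie on the same chromosome. RefSeq gives a window of 300 bases (250 before the start, 50 after it) for each listed start in assembly GRCm38.p6, and 8 of the 9 genes have 1 or more, Rb1 being the exception. Cdkn2a has separate windows for its ARF start at chr4:89294570-89294869 and for its p16 start at chr4:89282143-89282442, and Cdkn2b lies at chr4:89310983-89311282. The window of Cdkn2c shown is the one rich in GC, at chr4:109666707-109667006. All lie on the minus strand and are written 5′ to 3′ along the gene. Capitals mark the GC box GGGCGG and E2F words (TTTCCCGC, TTTGGCGC, TTTCGCGC or TTTGCCGC), searched on both strands.
Cdkn2a, ARF start: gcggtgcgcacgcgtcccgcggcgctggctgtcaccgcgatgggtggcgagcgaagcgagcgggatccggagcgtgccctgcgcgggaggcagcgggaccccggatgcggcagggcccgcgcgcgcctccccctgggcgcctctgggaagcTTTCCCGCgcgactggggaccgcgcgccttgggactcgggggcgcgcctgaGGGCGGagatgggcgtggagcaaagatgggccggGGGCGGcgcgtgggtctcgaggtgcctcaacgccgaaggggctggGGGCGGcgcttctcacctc
Cdkn2a, p16 start: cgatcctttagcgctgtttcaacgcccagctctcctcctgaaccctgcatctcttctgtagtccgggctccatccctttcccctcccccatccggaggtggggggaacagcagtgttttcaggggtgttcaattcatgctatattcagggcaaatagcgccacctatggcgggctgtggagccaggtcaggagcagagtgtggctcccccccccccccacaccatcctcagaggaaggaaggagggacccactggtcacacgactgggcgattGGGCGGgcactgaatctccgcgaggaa
Cdkn2b: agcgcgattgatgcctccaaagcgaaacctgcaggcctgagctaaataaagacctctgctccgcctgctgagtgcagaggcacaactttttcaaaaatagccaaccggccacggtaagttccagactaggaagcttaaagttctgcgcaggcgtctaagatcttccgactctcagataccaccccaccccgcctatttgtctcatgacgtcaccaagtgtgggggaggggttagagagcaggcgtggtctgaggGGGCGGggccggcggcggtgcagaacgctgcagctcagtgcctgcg
Cdkn2c: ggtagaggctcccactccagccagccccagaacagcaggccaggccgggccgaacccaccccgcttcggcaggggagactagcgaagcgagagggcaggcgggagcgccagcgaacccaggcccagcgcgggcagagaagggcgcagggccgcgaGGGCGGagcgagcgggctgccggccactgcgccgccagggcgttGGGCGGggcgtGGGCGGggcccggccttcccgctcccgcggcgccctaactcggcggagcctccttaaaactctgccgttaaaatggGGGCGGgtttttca

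The ARF window holds 1 E2F word, TTTCCCGC, which no other member window has; 2.26% of 32851 RefSeq windows of the same length hold 1 or more of the 4 words. It also has 3 GC boxes, 45 CpG and 77.0% GC, against a median of 7 CpG and 52.7% GC over all windows. The p16 window has 1 GC box, 12 CpG and 60.3% GC, the Cdkn2b window 1, 18 and 57.7%, and the Cdkn2c window shown 4, 33 and 73.3%. That Cdkn2c window was picked for its GC, and the window at the other listed start has 0 GC boxes, 8 CpG and 44% GC. A GC box is common, in 35.7% of all windows. These are matches of letters only, and no binding was measured on the arrays.

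Of the CIP/KIP genes, Cdkn1a encodes p21, the chief p53-induced inhibitor. It read 12.49 in the Firefly culture, 12.35 in the culture labelled Sumo2 knockdown, 11.53 in the 38 h line and 11.74 in the 10 day line. The iPSC lines lay 0.61 or more below both day 6 cultures, but the gene stayed far above the floor in them. It fell 1.72-fold, to 58.2% of the day 6 mean (log2 difference -0.78, SE 0.11, 95% CI -1.04 to -0.52, limma adjusted p = 0.00236). Whether differences are compressed in probe sets as bright as this was not tested.

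RefSeq lists 2 starts for Cdkn1a. Both are shown because the upstream window, chr17:29090729-29091028, holds matches to the p53 half-site consensus and the downstream one, chr17:29093519-29093818, does not; both lie on the plus strand. Capitals mark those half-sites and the GC box.
Cdkn1a, upstream start: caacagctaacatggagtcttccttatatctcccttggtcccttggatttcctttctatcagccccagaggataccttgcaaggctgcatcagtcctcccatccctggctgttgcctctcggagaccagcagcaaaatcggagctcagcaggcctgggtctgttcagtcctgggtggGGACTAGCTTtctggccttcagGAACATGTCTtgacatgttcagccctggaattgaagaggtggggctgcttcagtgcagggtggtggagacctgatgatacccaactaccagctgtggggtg
Cdkn1a, downstream start: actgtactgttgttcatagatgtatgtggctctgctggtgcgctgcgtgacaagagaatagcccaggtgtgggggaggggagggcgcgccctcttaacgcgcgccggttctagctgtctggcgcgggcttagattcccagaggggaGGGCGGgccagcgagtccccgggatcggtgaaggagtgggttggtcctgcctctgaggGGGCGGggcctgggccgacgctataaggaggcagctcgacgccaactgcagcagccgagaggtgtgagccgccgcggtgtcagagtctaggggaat

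The upstream window holds 2 half-sites, no GC box and 2 CpG, and the downstream window no half-site, 2 GC boxes and 23 CpG. The windows of Mdm2, Trp53 and Cdkn2d hold 1 half-site each. Of all windows 8.36% hold at least 1, and the 1 probe set of Cdkn1a does not tell which start was used.

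Cdkn1b encodes p27, which is governed to a large part by protein degradation through SKP2. It read 8.61, 8.45, 8.78 and 8.71 in the Firefly, labelled Sumo2 knockdown, 38 h and 10 day samples, with the lines higher by a gap of 0.10. The log2 difference of 0.21 (95% CI -0.18 to 0.60) did not pass (limma adjusted p = 0.310), and the interval reaches up to 1.52-fold.

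**Figure D2:**
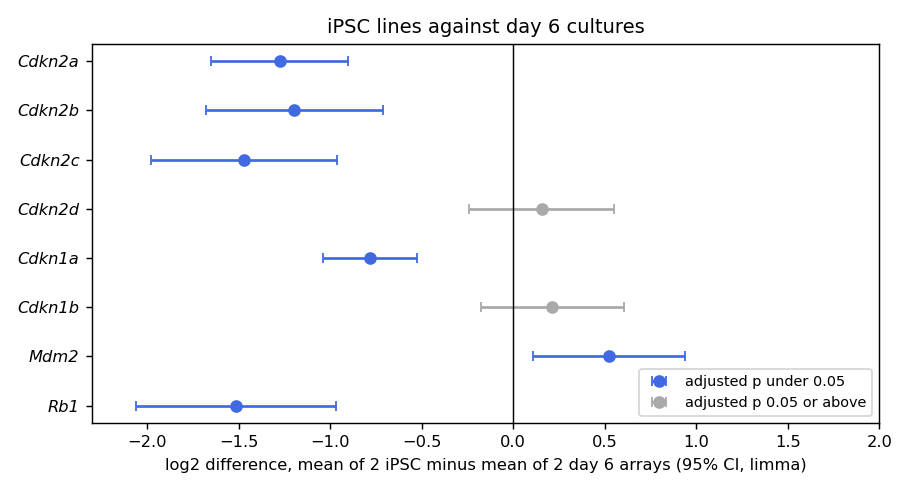
Log2 difference of each member, mean of the 2 iPSC arrays minus mean of the 2 day 6 arrays, with its 95% confidence interval from limma; blue points have an adjusted p under 0.05. The intervals of Cdkn2a, Cdkn2b, Cdkn2c, Cdkn1a and Rb1 lie below 0, that of Mdm2 runs from 0.11 to 0.94, and those of Cdkn2d and Cdkn1b include 0.

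Mdm2, the p53 ubiquitin ligase and itself a p53 target, went the other way. It read 10.27 in the Firefly culture, 10.57 in the culture labelled Sumo2 knockdown, 10.79 in the 38 h line and 11.10 in the 10 day line. Each array in that order was higher than the one before, with 0.21 between the higher day 6 culture and the lower line. Mdm2 passed just inside the threshold (1.44-fold, log2 difference 0.52, SE 0.17, 95% CI 0.11 to 0.94, limma adjusted p = 0.0466). The call was lost in 8 of 12 alternatives, with adjusted p from 0.0239 to 0.204: after cyclic loess, for example, the log2 difference was 0.35, adjusted p = 0.118, and without the Firefly array 0.37, adjusted p = 0.204. The window at its RefSeq start, chr10:117710709-117711008 on the minus strand, is shown as that of a p53 target that differed in the opposite direction to Cdkn1a; capitals mark 1 p53 half-site and 2 GC boxes.
Mdm2: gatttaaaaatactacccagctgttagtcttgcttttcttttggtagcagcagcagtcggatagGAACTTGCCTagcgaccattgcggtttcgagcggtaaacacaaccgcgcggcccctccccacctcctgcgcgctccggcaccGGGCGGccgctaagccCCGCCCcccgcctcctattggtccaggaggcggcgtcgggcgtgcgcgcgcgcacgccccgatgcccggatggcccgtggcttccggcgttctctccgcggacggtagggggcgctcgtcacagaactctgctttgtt

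Rb1 encodes the retinoblastoma protein, on which the CDK inhibitors act at a distance. Its brighter probe set read 11.36 in the Firefly culture, 11.31 in the culture labelled Sumo2 knockdown, 9.48 in the 38 h and 10.16 in the 10 day line. The day 6 cultures were alike, and the lines were lower and apart from each other. It fell 2.86-fold, to 35.0% of the day 6 mean (log2 difference -1.51, SE 0.23, 95% CI -2.06 to -0.97, limma adjusted p = 0.00318). The second probe set named for Rb1 alone read 4.49, 4.40, 4.19 and 4.52, below the floor on every array, and gives no usable difference. Taking the median of both probe sets lowers the difference to -0.80 (limma adjusted p = 0.0221).

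A further 2 probe sets are assigned to Lpar6 and Rb1 together; Lpar6, a lysophosphatidic acid receptor gene, lies within the bounds of Rb1 in the gene table of GRCm38.p6. The brighter read 10.25, 10.42, 8.27 and 7.09 in the Firefly, labelled Sumo2 knockdown, 38 h and 10 day samples, and the dimmer 7.73, 7.75, 6.47 and 6.15. Both were lower in the lines, but between the lines the brighter one was 2.26-fold lower in the 10 day line, whereas Rb1 alone was 1.60-fold higher there. Between the lines the brighter shared set therefore does not repeat the Rb1 pattern, though both sets fell in the iPSC as Rb1 did. The dimmer lay below the floor in both lines, so its difference between them is unmeasured. Which gene these probe sets read was not tested.

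**Figure D3:**
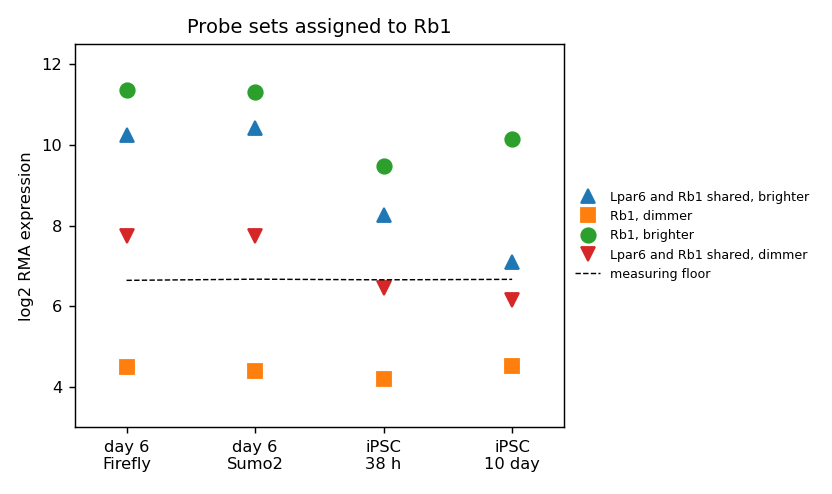
Log2 RMA expression of the 4 probe sets assigned to Rb1, 1 point per array, with the measuring floor dashed. The brighter Rb1 probe set and both sets shared with Lpar6 are lower on the iPSC arrays, and the dimmer Rb1 set stays at 4.19 to 4.52, below the floor. The dimmer shared set lies below the floor on both iPSC arrays.

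The second question was whether the culture labelled Sumo2 knockdown differed from the Firefly culture at day 6. With 1 array each there is no test. No member was 2-fold apart, where 1.18% of 11740 measured genes were, and none was 1.5-fold apart, where 6.90% of them were. Cdkn2c and Cdkn2b differed most, at 71.2% and 72.6% of the Firefly level (log2 differences -0.49 and -0.46). Mdm2 was higher at 123% (0.30). Cdkn2d (-0.15), Cdkn1b (-0.15), Cdkn1a (-0.14), Rb1 (-0.05) and Cdkn2a (0.03) were nearly equal. In all, 6 of 8 members were lower in the culture labelled Sumo2 knockdown, against 46.3% of all measured genes, and the members' median was -0.15 against 0.02. After cyclic loess or median centring 7 of 8 were lower, as Cdkn2a changed sign. The log2 differences of this pair had an SD of 0.33 over all measured genes.

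Other cell markers moved along with these small differences. Each of 9 measured fibroblast markers was lower in the culture labelled Sumo2 knockdown (median log2 difference -0.56), each of 9 pluripotency markers higher (0.90) and each of 12 proliferation genes higher (0.41). Over all measured genes 46.3% were lower in that culture. The fibroblast marker Postn and the pluripotency markers Sox2, Zfp42 and Dppa4 lay below the floor on both day 6 arrays. Their directions here are thus differences between unmeasured levels. Dppa2, Tdgf1 and Esrrb lay below the floor in Firefly alone (5.93, 5.84 and 6.14), so the sizes of their rises start from unmeasured levels. The median of 0.90 is the difference of Esrrb. Of 5 measured epithelial markers 4 were higher (1.22), Epcam by 2.68, Cdh1 by 2.18, Cldn4 by 1.22 and Krt8 by 0.91, and Krt18 differed by -0.15. The median level of the whole list went from 10.04 to 9.52 for the fibroblast markers and from 7.76 to 8.83 for the epithelial markers. For the pluripotency markers it went from 6.20, below the floor, to 7.31. In a bulk culture fewer cells of a type and less RNA per cell cannot be told apart, and the part of the markers in the differences of Cdkn2b and Cdkn2c was not tested.

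**Figure D4:**
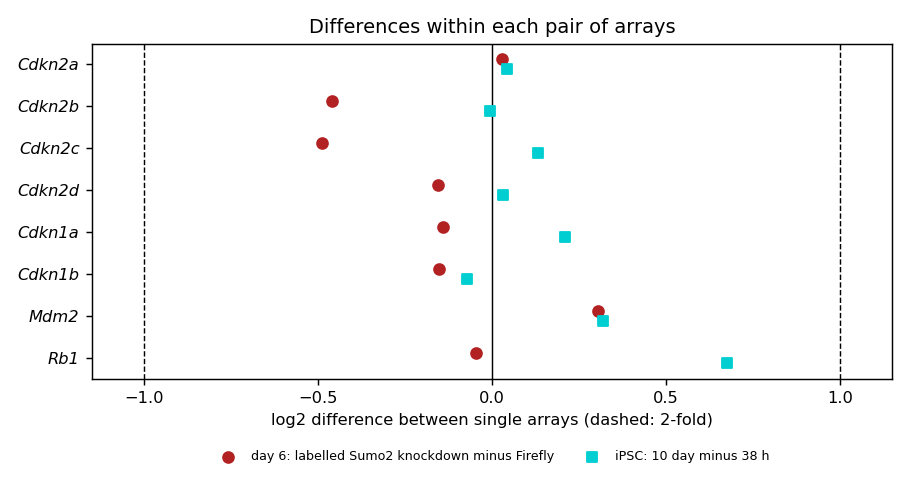
Log2 difference of each member between the 2 day 6 arrays (circles, labelled Sumo2 knockdown minus Firefly) and between the 2 iPSC arrays (squares, 10 day minus 38 h), with 2-fold as dashed lines. No point reaches 2-fold; Rb1 between the lines, at 0.68, is the farthest from 0.

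The third comparison set the iPSC lines side by side, again 1 array each and no test. Rb1 was 1.60-fold higher in the 10 day line (log2 difference 0.68) and Mdm2 1.25-fold (0.32); Cdkn1a (0.21) and Cdkn2c (0.13) differed less. Cdkn2a (0.04), Cdkn2d (0.03), Cdkn2b (-0.01) and Cdkn1b (-0.07) were all but equal. No member was 2-fold apart, where 3.22% of 11754 measured genes were, and 1 was 1.5-fold apart, where 10.5% were. Of the 8, 6 were higher in the 10 day line, against 47.4% of all measured genes. The members' median was 0.09 and that of all measured genes -0.02, with an SD of 0.41 over genes. Measured fibroblast markers had a median of -0.32 between the lines, pluripotency markers -0.07 and epithelial markers 0.64. The part of these markers in the members' differences was not tested.

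Genes around the members were then compared between day 6 and iPSC, to be read against the 29.0% of all measured genes called higher, the 17.8% called lower and their median of 0.15. In the list of CDKs, cyclins and their regulators 5 of 16 measured genes rose, 3 fell and 8 did not pass, shares near those of all measured genes. Without the Firefly array 3 were called higher and 2 lower, and without the array labelled Sumo2 knockdown 6 higher and 2 lower. The D-type cyclin genes that the INK4 proteins oppose split: Ccnd2 went from 12.83 and 12.77 at day 6 to 10.43 and 10.04 in the 38 h and 10 day lines (log2 difference -2.57, limma adjusted p = 0.000184) and Ccnd1 fell by 1.25, while Ccnd3 rose by 0.84. Of their kinases, Cdk6 read 10.38 and 10.61 at day 6 but 9.78 in the 38 h and 8.01 in the 10 day line (difference of the means -1.59, limma adjusted p = 0.0452, a call lost in 6 of 12 refits), and Cdk4 was level (0.10). The phosphatase gene Cdc25a, which frees CDK2, rose by 1.65 and Cdk2 by 1.24. Between the day 6 cultures Cdc25a was 1.03 and Skp2, part of the ligase that degrades p27, 0.70 higher on the log2 scale in the culture labelled Sumo2 knockdown, while between the lines (10 day minus 38 h) Cdk6 differed by -1.77 and Ccne1, the cyclin partner of CDK2, by -0.60.

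Among Rb relatives, E2F factors and the MuvB complex, which works with them, 9 of 18 genes rose and none fell. Their median log2 difference was 0.51, against 0.15 over all measured genes. Mybl2, the activating partner of MuvB, rose by 2.49, E2f5 by 1.95, E2f8 by 1.53, E2f1, an activator of S phase genes, by 1.31 and the Rb relative Rbl1 (p107) by 1.13, whereas Rbl2 (p130), at -0.46, did not pass. Mybl2 was also 1.18 higher and Hdac1, a corepressor of Rb, 0.49 higher in the culture labelled Sumo2 knockdown than in Firefly. Between the lines E2f6 (0.73) and E2f7 (-0.66) differed most, 10 day minus 38 h. Of the 12 proliferation genes 9 rose and none fell, with Mcm3, Bub1b, Mcm5 and Top2a at 1.92, 1.58, 1.47 and 1.41; Mcm3 and Bub1b were also 0.76 and 0.78 higher in the culture labelled Sumo2 knockdown. Tk1 (-0.36) and Mcm2 (-0.24) differed most between the lines. Cyclic loess and median centring left the sign of both list medians as it was but called 1 of the 18 lower. They called 8 and 7 of the 18 higher in place of 9, and 9 and 8 of the 12 proliferation genes.

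Of 18 measured genes acting on or with p53, 9 rose and 2 fell (median 0.67), where over all measured genes too more were called higher (29.0%) than lower (17.8%). After cyclic loess 8 and after median centring 7 of the 18 were called higher. The count of 2 was 1 without the Firefly, the labelled Sumo2 knockdown or the 10 day array. The checkpoint kinase genes Chek2 and Chek1 rose by 2.04 and 1.70 and the MDM2 partner gene Mdm4 by 1.80, while Hipk2, a kinase that activates p53, fell by 1.62. In the culture labelled Sumo2 knockdown all 18 were higher than in Firefly (15 after cyclic loess and 16 after median centring), Chek1 by 0.91 and the mitotic kinase gene Aurka by 0.70. Of all measured genes 46.3% were lower in that culture. Rpl5 and Trp73, counted among the 18, lay below the floor in Firefly. Chek2 (0.27) and Kat5 (-0.23) differed most between the lines. Of 16 measured p53 targets, 10 fell, 1 rose and 5 did not pass (median -0.61). Phlda3, Perp and Btg2 fell by 1.37, 1.19 and 1.13. One of the 10, the death receptor gene Fas, read 7.46 and 7.42 at day 6 and lay below the floor in both lines, at least 1.71-fold lower counted from it; it was measured through the day 6 arrays alone, so its call is no support for the count. Pmaip1 (Noxa) was the 1 that rose, by 0.88. Without the array labelled Sumo2 knockdown 6 of the 16 were called lower. Perp (0.56) and Plk2 (0.41) were the targets farthest apart between the day 6 cultures, and Eda2r (0.79) and Sesn1 (0.76) between the lines.

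For the regulators of the Ink4a/Arf locus, 9 of 14 measured genes rose, 2 fell and 3 did not pass (median 0.61). Genes of the Polycomb complexes, which are known to repress the locus, were among those that rose. Cbx7 rose by 1.72, Ezh2 by 1.17, Eed by 1.11, Suz12 by 0.66, and Pcgf2 and Rnf2 by 0.55 each. Bmi1 (-0.28) and Ring1 (-0.13) did not pass, and Cbx8 was unmeasured. Dmtf1, also on the list, rose by 0.99. The T-box repressors split, in that Tbx3 rose by 2.46 and Tbx2, measured through the day 6 arrays alone, was at least 1.85-fold lower counted from the floor, and so did the ETS activators, of which Ets2 rose by 1.27 and Ets1 fell by 0.89. Ezh2 and Suz12 were also 0.69 and 0.50 higher in the culture labelled Sumo2 knockdown than in Firefly, and Ets2 and Tbx3 0.92 and 0.70 higher in the 10 day than in the 38 h line. The count of 9 was 6 after either rescaling, 6 without the 10 day array and 4 without the Firefly array. No link between these genes and the level of Cdkn2a was tested.

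**Figure D5:**
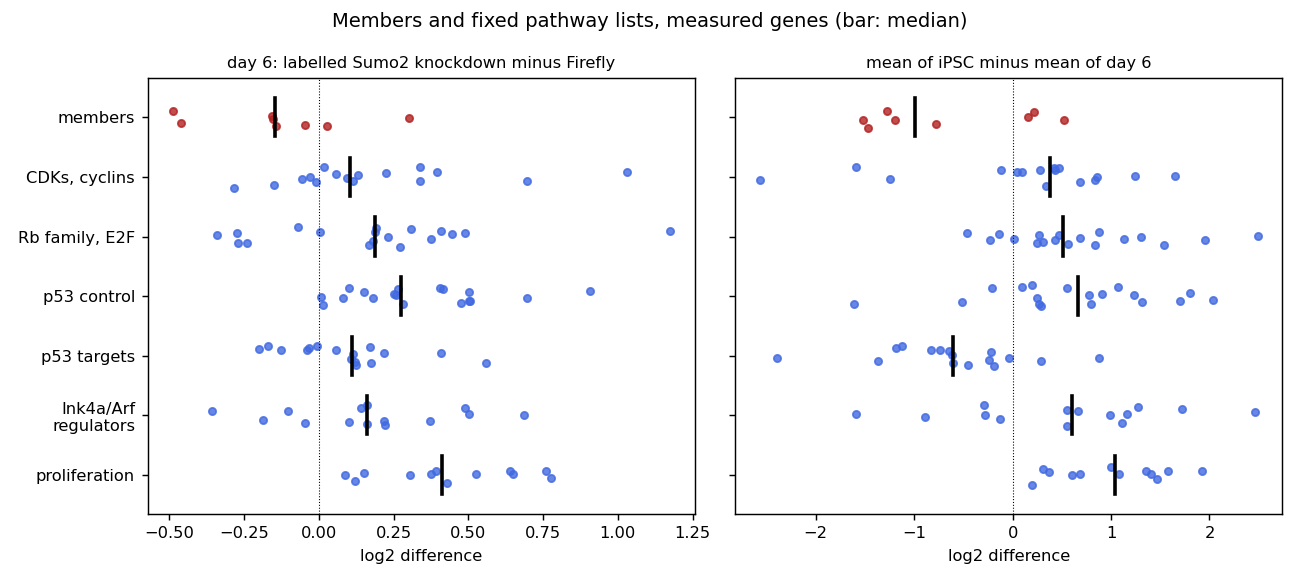
Log2 differences of the members (red) and of the measured genes of 6 pathway lists (blue), left between the day 6 arrays and right between the means of iPSC and day 6, with a bar at each median. On the right the members and the p53 targets have medians below 0 (-0.99 and -0.61) and the other lists above 0, up to 1.04 for proliferation; points are spread vertically at random.

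Finally, genes with the most similar profile were sought for the 4 members that spanned at least 1 on the log2 scale, by the root mean square difference of values centred on each gene's own mean, over 4 arrays and 11811 other measured genes. Nearest to Cdkn2a were Wipf1 (0.03), the RNA editing gene Adarb1 (0.04) and the mitochondrial protease gene Htra2 (0.04). Nearest to Cdkn2b were the lysosomal sulfatase gene Sgsh (0.02), Mfap3l (0.03) and Mxra7 (0.03), and to Cdkn2c Spats2l, Osbp2 and Cmtm3 (0.03 each). For Rb1 they were the mitochondrial kinase gene Pink1 (0.03), the 5-methylcytosine oxidase gene Tet3 (0.05) and Ammecr1 (0.06). Mfap3l and Osbp2 lay below the floor in both lines, and Wipf1 in the 38 h line, so their likeness there rests on unmeasured levels. Likeness over 4 arrays is a description of these samples only.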

How the data were processed

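Biotin-labelled total RNA of 4 samples was hybridised to 1 array each. The deposited values are log2 expression, 1 per probe set, which the authors made with RMA, per the submitters' processing notes, in the program Affymetrix Expression Console; versions and settings are not given in the sources used here. Base 2 was taken from their range. Quantile normalization hides changes in total RNA per cell, and arrays give no counting depth, so their number limits the precision. Single-symbol probe sets numbered 23521, several symbols had 1814 and none had 16010; 23328 Entrez IDs matched a RefSeq gene table (GRCm38.p6), changing 0 symbols. The brightest probe set stood for a gene, and a gene was measured when at or above the floor on at least 1 array.

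Both iPSC arrays were compared with both day 6 arrays in limma 3.58.1 (R 4.3.3; intensity trend, 2 residual degrees of freedom) over 12735 measured genes with Benjamini-Hochberg adjustment; single arrays were compared by size only. The script was tested on simulated data. The labels do not state separate cultures or animals, so p-values measure only the spread between these arrays. Alternatives were other filters, scalings, variance models, probe set rules and each array left out. Members and lists were chosen with earlier results of these data known. From each list the text names up to 4 genes with the largest difference between iPSC and day 6 and up to 2 within each pair of arrays; further list genes were named after their values were seen. The proteins were not compared here.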

Additional observations from a re-analysis of the deposited data

How the results depend on the processing

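The count of 5 members lower in the iPSC stayed at 5 under all 12 refits (filters, scalings, variance models, probe set rules and each array left out) and was 4 with 2-fold required as well. In those refits the log2 difference ran from -1.47 to -1.25 for Cdkn2a, -1.43 to -0.96 for Cdkn2b, -1.72 to -1.23 for Cdkn2c, -0.98 to -0.68 for Cdkn1a and -1.85 to -0.80 for Rb1, with adjusted p of at most 0.0375. The count of 1 member higher, Mdm2, became 0 with no filter on dim genes, after cyclic loess, after median centring, with no intensity trend, with all probe sets tested and with 2-fold required, and ran from 0 to 1 when an array was left out, surviving only without the 38 h array. Cdkn2d, never called, turned to -0.042 under median centring. Cyclic loess and median centring moved the median difference of all measured genes by -0.13 and -0.20, and the share of calls that were lower from 38.0% to 47.6% and 54.7%. Between the day 6 cultures 0 members were 2-fold or 1.5-fold apart; between the lines 0 were 2-fold apart and 1 was with 1.5-fold in place of 2-fold. Counts in the pathway lists under the same refits were added after the data were seen. No paired analysis was possible because each group holds 1 array. A lone array left in an arm was assumed to vary like the other pair.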
